A study of Mus musculus with 89 samples.

Results

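The mitochondrial respiratory chain and ATP synthase genes were taken as all nuclear genes whose mouse symbol starts with Nduf, Sdh, Uqcr or Atp5, or with Cox followed by 4, 5, 6, 7 or 8. The rule used names and no measured value. It found 63 of the 9542 genes in the table of exon skipping events after HSV delivery, and 20 of the 3434 genes in the table of the dCas9-SET2 experiment. All 20 were among the 63. The 63 were sorted by the start of their symbols. This gave 30 genes for complex I, 2 for complex II, 4 for complex III, 7 for complex IV and 13 for complex V. The other 7 are assembly factors (6 of Ndufaf type and Sdhaf2). By name alone, Ndufa4l2 was thus counted in complex I, Cox7a2l in complex IV and Atp5s in complex V.

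The respiratory chain passes electrons from NADH and succinate to oxygen through complexes I, II, III and IV of the inner mitochondrial membrane. The proton gradient built on the way drives complex V, the ATP synthase. Neurons depend on this pathway for the ATP spent on ion pumping and synaptic transmission, and most of its subunits are made from nuclear genes.

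The series concerned alternative splicing and H3K36me3, a histone mark of transcribed genes, in the nucleus accumbens, a reward region of the brain. The RNA samples came from micro-punched nucleus accumbens of wild-type C57BL/6 mice aged 8 weeks. In the HSV experiment, which delivers genes to neurons with a herpes simplex vector, the groups were HSV-GFP, HSV-Set2 and HSV-R195G, with 3 libraries each. Set2 is a methyltransferase that places H3K36me3. In the other experiment all samples received dCas9-SET2, Set2 joined to a Cas9 that binds DNA without cutting it, with a guide labelled NT or SRSF11, in 16 runs each (4 names of 4 runs). The labels give neither the promoter that drove a construct nor the share of cells that carried one. The chromatin libraries of the series were not used here.

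Both tables list, for each exon, the reads that include it and the reads that skip it, in 2 sets of unnamed columns. One set of the HSV table has 2 libraries and the other 3, and each set of the dCas9-SET2 table lists 16 runs. In each of its sets the runs in places 4 and 8 are identical over all 5608 events, while no other pair of runs is equal in more than 14.1% of events. That run was counted once, which leaves 15 distinct runs in each set. No column carries a sample name, so no virus or guide was assigned to any set. Below, HSV values stand in the order 2-library set, then 3-library set, and a difference is the later set minus the earlier. For the dCas9-SET2 table it is the second set minus the first. HSV libraries held 7428974 to 8638249 reads over all events, and dCas9-SET2 runs 56946 to 106251. Nothing in the labels says that libraries came from separate animals, so p-values measure only the spread between these libraries, which may be technical.

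The sets of the HSV table differed widely outside the respiratory chain. Coverage is used here for the reads of a gene's deepest event as CPM, counts scaled to a common library size. Markers are counted as higher or lower where a test of coverage passed (limma, Benjamini-Hochberg adjusted p below 0.05). Of all 8201 genes 13.2% were called higher and 9.49% lower. All 14 measured of 19 listed genes of the interferon response were higher in the 3-library set, with summed levels of 141.6 and 328.8 against 3829, 3390 and 3753 CPM. Of 9 measured of 12 listed markers of medium spiny neurons, the main cell type of the region, 8 were called lower. All 9 had a log2 difference below 0, with sums of 9179 and 7329 against 3091, 3186 and 2986. Of 9 microglial markers 5 were called higher and all 9 lay above 0 (sums of 1312 and 2867 against 3462, 3454 and 3398). Of 8 oligodendrocyte markers 6 were called higher and 7 lay above 0 (6228 and 8392 against 10580, 8122 and 10400). Of 6 astrocyte markers 2 were called higher and 3 lay above 0. Of 5 general neuron markers 3 were higher and 2 lower, and the 1 measured T cell marker, Cd4, was lower. The lowest mean level of any measured marker of these lists was 5.73 CPM, in the microglial list, and none of the endothelial and mural markers was measured. In whole tissue, fewer cells of a type and less RNA per cell cannot be told apart.

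The summed level of the respiratory chain was alike in both sets. Summed over the 62 members with coverage, levels were 37180 and 35810 CPM against 36520, 34320 and 36800, so the sets overlap. The median log2 difference was -0.03, beside 0.00 over all 8201 genes measured. Of the 62 members 26 lay above 0 and 36 below, and with scaling by total reads 31 lay above 0, with a median of 0.001 beside 0.032 for all genes. The middle of the distribution ran from -0.12 (lower quartile) to 0.04 (upper quartile), against -0.25 to 0.33 for all genes. A difference past 1.5-fold was seen in 1 member of 62 (1.61%, Cox6b2) and in 22.5% of all genes. The marker sums above moved between the same sets, and their part in the members' values was not tested.

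Read density, the CPM divided by the form length in kb, sets the levels of the genes side by side. Subunits of the complexes were among the most densely read genes of the table. Of 55 subunit genes, 51 lay at or above the 90th percentile of all genes, while none of the 7 assembly factors did. Medians were 1375.3 for complex I, 1499 for complex II, 2151 for complex III, 4265.7 for complex IV and 2916.7 for complex V, against 242 for assembly factors and 151.9 for all genes. Among subunits the highest densities were those of Atp5b, the catalytic beta subunit of ATP synthase (9095.9), Cox4i1, a nuclear-encoded subunit of cytochrome c oxidase (8105.7), Atp5a1, the alpha subunit (7540.2), and Atp5g3, a gene of the membrane c-ring (5369.6). In complex I the range ran from 729.9 for Ndufs1, the large iron-sulfur subunit, to 2208.2 for Ndufb9, a membrane-arm subunit.

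**Figure D1:**
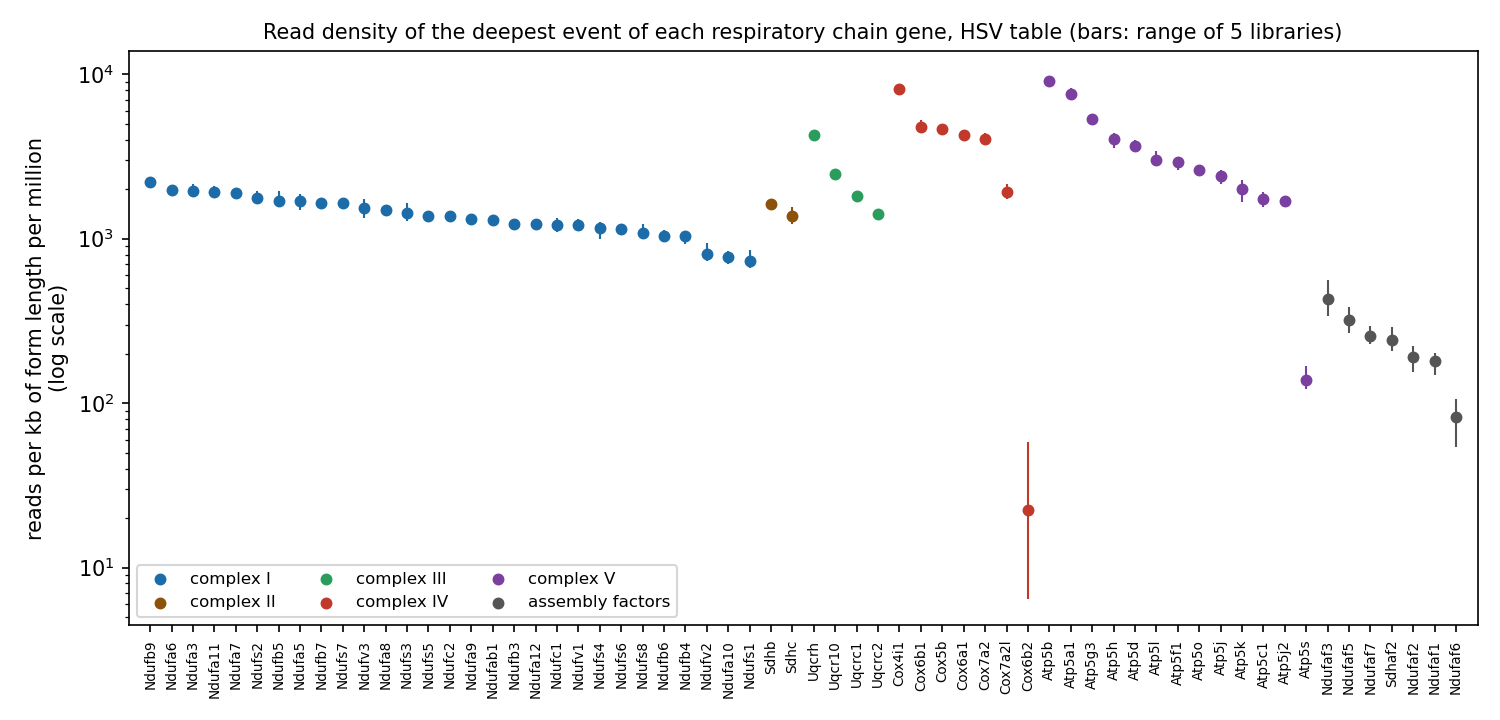
Each point is 1 of the 62 measured genes, ordered by complex and by level, with its mean read density over the 5 HSV libraries (log axis, CPM per kb of form length) and a bar for the range of libraries. Subunits lie mostly between 729.9 and 9095.9, assembly factors between 81.9 and 430, and Cox6b2 (22.5) and Atp5s (137.9) lie below the other subunits.

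The 2 subunit genes far below the rest were Atp5s, a factor associated with ATP synthase, at 137.9, and Cox6b2, the testis form of cytochrome c oxidase subunit 6b, at 22.5. Its somatic counterpart Cox6b1 stood at 4786.5. The other members of duplicated or tissue-specific pairs with coverage were Cox7a2l (1910.3) and the forms known from brain and liver: Cox4i1, Cox6a1 (4265.7), Cox7a2 (4013.8) and Atp5g3. Every listed event has at least 1 read of each form. A partner gene without such an event is absent whatever its level, so its absence does not show low expression. Ndufa4l2, a hypoxia-induced paralog of Ndufa4, had 4 to 11 reads per library over its event and was not measured. Neighbours in the order of densities mostly differ by less than the range of their libraries, as the plot of density by gene shows, so single ranks carry no weight.

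Of the 62 members 3 passed the test of coverage (limma, Benjamini-Hochberg adjusted p below 0.05), or 4.84%, where 22.7% of all 8201 genes did. All 3 were lower in the 3-library set, beside 9.49% of all genes called lower and 13.2% called higher. They were Ndufs3, a core subunit in the peripheral arm of complex I, and Atp5k and Atp5l, the e and g subunits of the membrane part of ATP synthase, which stand at the dimer interface.

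Ndufs3 had 432.5 and 442.9 against 360.5, 361.0 and 343.6 CPM. Every library of the first set was above every library of the second. The log2 difference was -0.30 (SE 0.08, adjusted p = 0.0182, limma). Atp5k had 565.5 and 555.0 against 498.6, 418.9 and 459.0, again without overlap, with a log2 difference of -0.29 (SE 0.09, adjusted p = 0.0345, limma). Atp5l had 1005.9 and 1049.1 against 873.5, 864.9 and 872.8, and the 3 lower libraries lay close together. Its log2 difference was -0.24 (SE 0.07, adjusted p = 0.0316, limma). The fitted level fell by 18.9% for Ndufs3, fell by 18.3% for Atp5k and fell by 15.3% for Atp5l. Without the third library of the 3-library set none of the 3 was called (limma adjusted p = 0.0705, 0.0869 and 0.0912, with 6 members at unadjusted p below 0.05), and without its second only Ndufs3 was. With 1 prior spread for all genes none was called (0.136, 0.194 and 0.208), and with total reads in place of TMM scaling Atp5l missed the threshold (0.0523).

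The promoters of the 3 genes with lower coverage are shown as the 250 bases before the RefSeq start (GRCm38.p6, minus strand in all 3, printed 5′ to 3′ along the gene). Capitals mark matches to motifs of factors known for nuclear genes of the respiratory chain, searched on both strands: NRF1 as GCGCA, any base, then GCGC, and ETS factors as CCGGAAG. ERR was searched as TCAAGGTCA and YY1 as AAGATGG followed by CGG. The windows are chr2:90904722-90904971 for Ndufs3, chr5:108434400-108434649 for Atp5k and chr9:44920743-44920992 for Atp5l.
Ndufs3: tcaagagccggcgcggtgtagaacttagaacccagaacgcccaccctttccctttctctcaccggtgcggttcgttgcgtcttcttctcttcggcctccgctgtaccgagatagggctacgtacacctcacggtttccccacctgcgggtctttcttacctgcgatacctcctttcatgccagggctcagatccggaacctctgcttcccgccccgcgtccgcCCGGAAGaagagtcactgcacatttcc
Atp5k: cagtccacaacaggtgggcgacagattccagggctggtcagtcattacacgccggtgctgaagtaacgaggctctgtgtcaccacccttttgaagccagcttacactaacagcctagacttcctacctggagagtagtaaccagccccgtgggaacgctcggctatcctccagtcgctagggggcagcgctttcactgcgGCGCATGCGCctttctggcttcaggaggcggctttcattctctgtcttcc
Atp5l: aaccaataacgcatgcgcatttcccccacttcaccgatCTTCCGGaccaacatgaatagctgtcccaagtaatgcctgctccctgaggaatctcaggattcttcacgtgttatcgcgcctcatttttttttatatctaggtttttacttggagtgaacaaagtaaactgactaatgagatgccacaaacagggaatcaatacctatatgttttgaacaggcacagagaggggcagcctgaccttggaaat
Ndufs3 holds an ETS match that begins 27 bases before the start, and Atp5l holds one on the other strand 212 bases before it. Atp5k holds an NRF1 match at 50 bases, which reads as the motif on both strands. Neither ERR nor YY1 letters occur in these 3 windows. Of the 63 members 52 had a window in the RefSeq table, with 57 windows in all. NRF1 letters were in 11 of them (19.3%), against 3.74% of all 32851 windows. ETS letters were in 11 (19.3%, against 6.91%), ERR letters in 1 (1.75%, against 0.387%) and YY1 letters in 1 (1.75%, against 0.301%). Member windows had a median GC content of 56.4%, all windows 52.4%. These matches are descriptions of the letters, not of bound sites.

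Other members of complex V and complex I also had sets that did not overlap, without passing the test. Atp5d, the delta subunit, had 939.4 and 932.1 against 840.4, 806.2 and 810.8 (log2 difference -0.19, limma adjusted p = 0.0791). Atp5h, the d subunit of the stalk, had 1084.7 and 1054.3 against 973.3, 961.5 and 884.8 (-0.19, adjusted p = 0.101). Ndufb5, a membrane-arm subunit of complex I, lay the other way at 380.3 and 374.7 against 428.0, 391.7 and 462.8 (0.18, adjusted p = 0.197). In complex V, Atp5o (0.11, limma adjusted p = 0.336) and Atp5s (0.25, adjusted p = 0.342) were also higher without overlap. Atp5j2 was lower without overlap (-0.09, adjusted p = 0.503). In all, 22 of the 62 members had sets without overlap (35.5%), beside 49.8% of all genes. By complex, such members numbered 9 of 29 in complex I, 0 of 2 in complex II, 0 of 4 in complex III, 3 of 7 in complex IV, 7 of 13 in complex V and 3 of 7 assembly factors.

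The median log2 difference lay within 0.08 of 0 for each complex and lower for the assembly factors. It was -0.01 for complex I (29 genes, from -0.30 to 0.18), -0.07 for complex II, 0.05 for complex III, 0.03 for complex IV, -0.08 for complex V (13 genes, from -0.29 to 0.25) and -0.21 for assembly factors (7 genes, from -0.32 to 0.18). Of the 7 assembly factors 5 lay below 0. None of them passed the test, nor did a member of complexes II, III or IV. The lowest value was that of Cox6b2, at 2.95 and 14.5 against 2.19, 1.62 and 6.58 CPM (-1.16, SE 0.75, limma adjusted p = 0.309). Its first library is within the range of the 3-library set and the value rests on 6 to 59 reads per library.

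**Figure D2:**
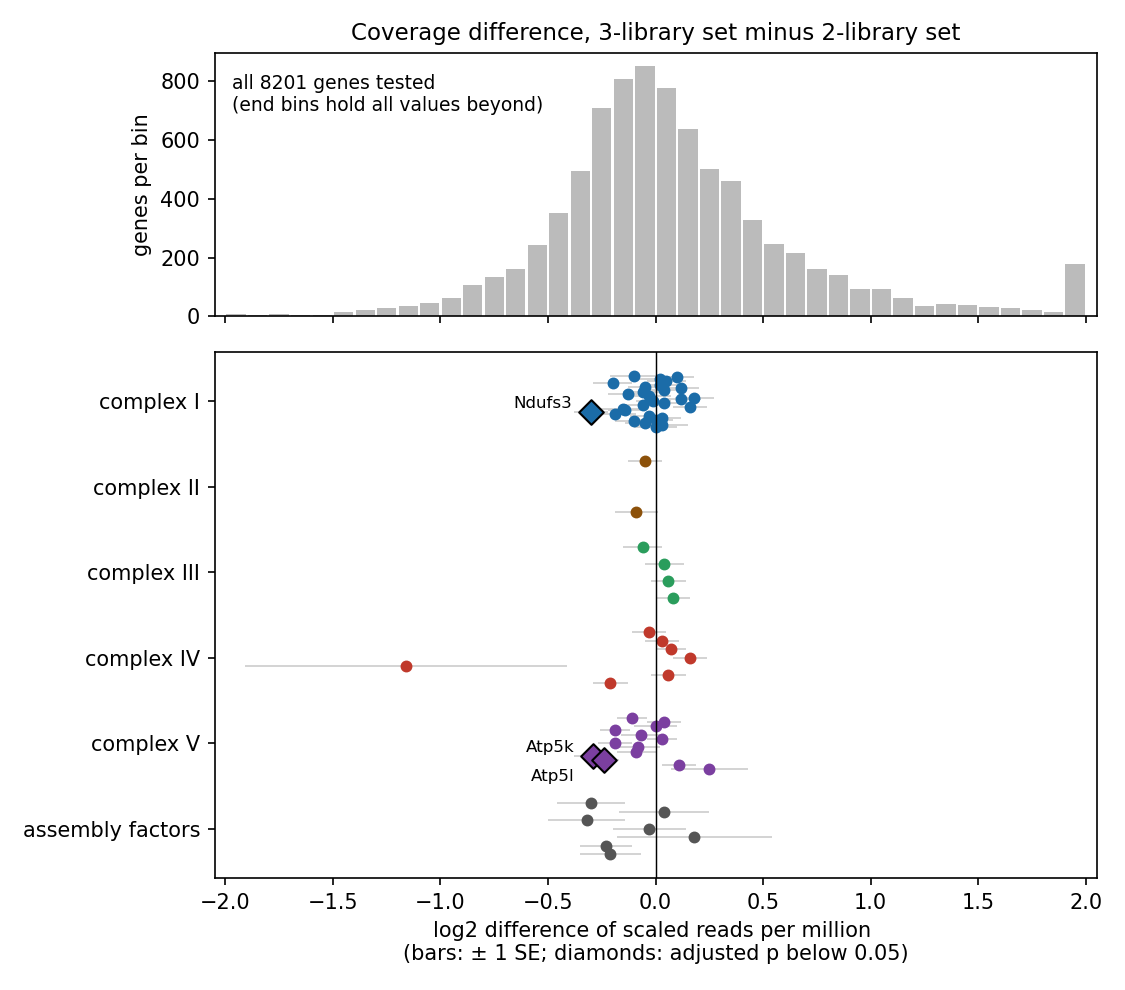
The upper panel counts all 8201 genes by log2 coverage difference, 3-library set minus 2-library set. The lower panel gives the 62 members by complex with ± 1 SE, diamonds marking Ndufs3 (-0.30), Atp5k (-0.29) and Atp5l (-0.24), the 3 members past the test; 61 members lie between -0.32 and 0.25, and Cox6b2 lies at -1.16.

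The most deeply read gene of each complex did not pass the coverage test. Atp5b had 3321.4 and 2968.9 against 3359.8, 3064.7 and 3293.2 CPM, and Cox4i1 had 2757.4 and 2458.0 against 2535.8, 2402.0 and 2730.9. Uqcrh, the hinge protein of complex III, had 1278.7 and 1305.5 against 1418.3, 1267.9 and 1407.4. These 3 genes overlapped between the sets, with log2 differences of 0.04, -0.03 and 0.08 and an SE of 0.08 each. Ndufb9 (0.04, SE 0.08), Sdhb, the iron-sulfur subunit of succinate dehydrogenase (-0.05, SE 0.08), and Ndufaf3 (-0.32, SE 0.18) did not differ beyond the test's threshold either (limma adjusted p = 0.803, 0.734 and 0.226).

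Subunits of complex IV with paired isoforms lay on both sides of 0, and none passed the test. Cox6b1 had 1114.9 and 1124.5 against 1317.1, 1177.4 and 1250.4 CPM (0.16, limma adjusted p = 0.171). Cox6a1 had 1213.4 and 1212.4 against 1275.2, 1233.1 and 1313.4 (0.07, adjusted p = 0.533). Both were without overlap and higher in the 3-library set, while Cox7a2 (0.06, adjusted p = 0.637) overlapped. Cox7a2l, a factor that joins complexes III and IV into supercomplexes, had 597.5 and 553.0 against 485.2, 491.8 and 513.5, lower without overlap (-0.21, adjusted p = 0.0817). Atp5g3 lay between 1770.7 and 1933.2 in all 5 libraries.

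Exon inclusion is given as PSI, the fraction of transcripts that include an exon, computed from the reads per form length. The HSV table lists 139 exon events for the members, in 120 distinct exons. Most of them were included nearly always: 123 events (88.5%) had a mean PSI of at least 0.9, 12 (8.63%) were at or below 0.1 and 4 (2.88%) lay between, against 22.6% between for all 27900 events. Of the 139 events, 80 had at most 9 skipping reads over the 5 libraries and were not tested, and 25 of the 63 genes had no other event. The event with the most reads, a 202-nt exon of Atp5b, had 13492 and 12053 against 13801, 11383 and 12018 inclusion reads, with 0, 0, 0, 2 and 0 skipping reads.

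Among the most deeply read exons of the other complexes, the 168-nt exon of Cox4i1 had a PSI from 0.999 to 1.0 and 1 to 5 skipping reads per library, beside 8922 to 11196 inclusion reads. The 162-nt exon of Uqcrh had 1 skipping read in all, the 137-nt exon of Sdhb also 1, and the 114-nt exon of Ndufb9 had 0 to 3 per library. The deepest exon of an assembly factor, 67 nt of Ndufaf3, was less complete, at 0.980 and 0.961 against 0.990, 0.990 and 0.962. Skipping of these exons was thus rare in every library, and highest in Ndufaf3.

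The test of inclusion took 59 member events in 38 genes, with a median of 1200 reads per library against 129 for all 7754 events. Differences of PSI between the sets were small. The median absolute difference of PSI was 0.00417, against 0.031 for all events, and 3 of 59 (5.08%) reached 0.05 against 37.0%. None reached 0.1 (17.6% of all events). Of the 59, 44 had a mean PSI of at least 0.9, 12 were at or below 0.1 and 3 lay between, where 46.9% of all tested events lay. Levels near 0 or 1 leave little room for a PSI difference. Deep reads let such events reach the 10 reads of the rarer form that the test required. The part of depth and level in the smaller PSI differences was not tested. On the logit scale the median SE was 0.523, against 0.556 for all events. An exon length that is a multiple of 3 was found in 28 of 59 (47.5%) and in 52.8% of all.

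**Figure D3:**
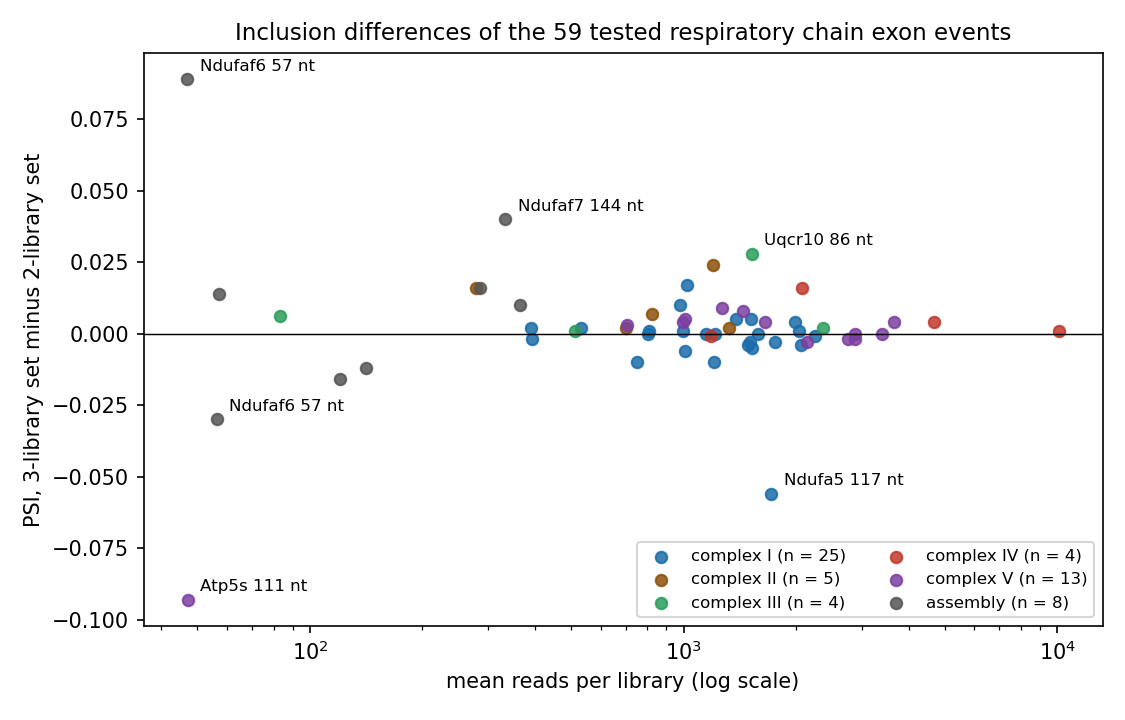
Each point is 1 of the 59 tested exon events, with its mean reads per library (log axis) and its PSI difference, 3-library set minus 2-library set, coloured by complex. Ndufa5 at -0.056 (1718 reads per library) stands apart among deeply read events, and the outer points Ndufaf6 (0.089) and Atp5s (-0.093) rest on 47.0 and 47.2 reads per library.

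Of the 59 events 2 passed the test (limma on the logit of PSI, Benjamini-Hochberg adjusted p below 0.05), beside 3.69% of all events. They went in opposite directions, and of all events 1.69% were called higher and 2% lower. One was the 117-nt exon of Ndufa5, a subunit of the peripheral arm of complex I (chr6:24472659-24472775 on the minus strand as the table gives it, build not given in the sources used here). Its PSI was 0.956 and 0.950 against 0.899, 0.915 and 0.876. The skipping reads behind this were 50 and 53 against 100, 71 and 119, beside 1942 and 1806 against 1587, 1360 and 1500 inclusion reads. All 3 libraries of the second set were thus lower, without overlap. The difference was -0.056 in PSI and -0.87 on the logit scale (SE 0.167, adjusted p = 2.26e-05, limma). Coverage of Ndufa5 was 490.4 and 457.9 against 410.7, 385.2 and 443.6 CPM (log2 difference -0.20, limma adjusted p = 0.133).

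The other was an 86-nt exon of Uqcr10, a small subunit of complex III (chr11:4603907-4603992, minus strand). This exon is mostly skipped, with PSI of 0.052 and 0.065 against 0.096, 0.088 and 0.077. Inclusion reads were 126 and 161 against 223, 176 and 172, beside 1470 and 1473 against 1342, 1165 and 1309 skipping reads. Inclusion was higher in all 3 libraries of the 3-library set, by 0.028 in PSI and 0.42 on the logit scale (SE 0.11, adjusted p = 0.00537, limma).

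Both calls rest on weights from reads alone, with 1 spread shared by all events. With a between-library term added to the weights, an alternative chosen after seeing the data, the limma adjusted p was 0.385 for Ndufa5 and 0.678 for Uqcr10, and 5 of all 7754 events were called. Without weights it was 0.507 and 0.728. Leaving out the first library of either set ended the call of Uqcr10 (0.314 and 0.0829), while Ndufa5 was called with any 1 library left out.

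The authors' deposited table calls 5 of the 59 events at an FDR below 0.05, beside 12.6% of all tested events. Ndufa5 (FDR 9.57e-07) and Uqcr10 (0.0113) are 2 of them. The third was the 129-nt exon of Cox7a2l (FDR 0.00313), at 0.980 and 0.963 against 0.993, 0.986 and 0.984, with 26 and 46 against 8, 14 and 16 skipping reads. The limma fit gave it an adjusted p of 0.0849 (0.0351 with library 1 of the 2-library set left out). Sdhc encodes a membrane anchor of succinate dehydrogenase. Its 62-nt exon (FDR 0.00918) stood at 0.949 and 0.960 against 0.968, 0.992 and 0.974 (adjusted p = 0.249, limma). Another tested event of this same exon overlapped, at 0.952 and 0.987 against 0.990, 0.984 and 0.984 (FDR 0.479, limma adjusted p = 0.599). The last was a 57-nt exon of Ndufaf6, ending at 10980635 on chromosome 4 (FDR 0.00724), with 2 and 7 against 0, 1 and 0 skipping reads (adjusted p = 0.571, limma). In the called events of Cox7a2l, Sdhc and Ndufaf6 the sets did not overlap, the 3-library set having the higher inclusion. Over all members 12 of 59 events had no overlap (20.3%), against 27.8% of all events.

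**Figure D4:**
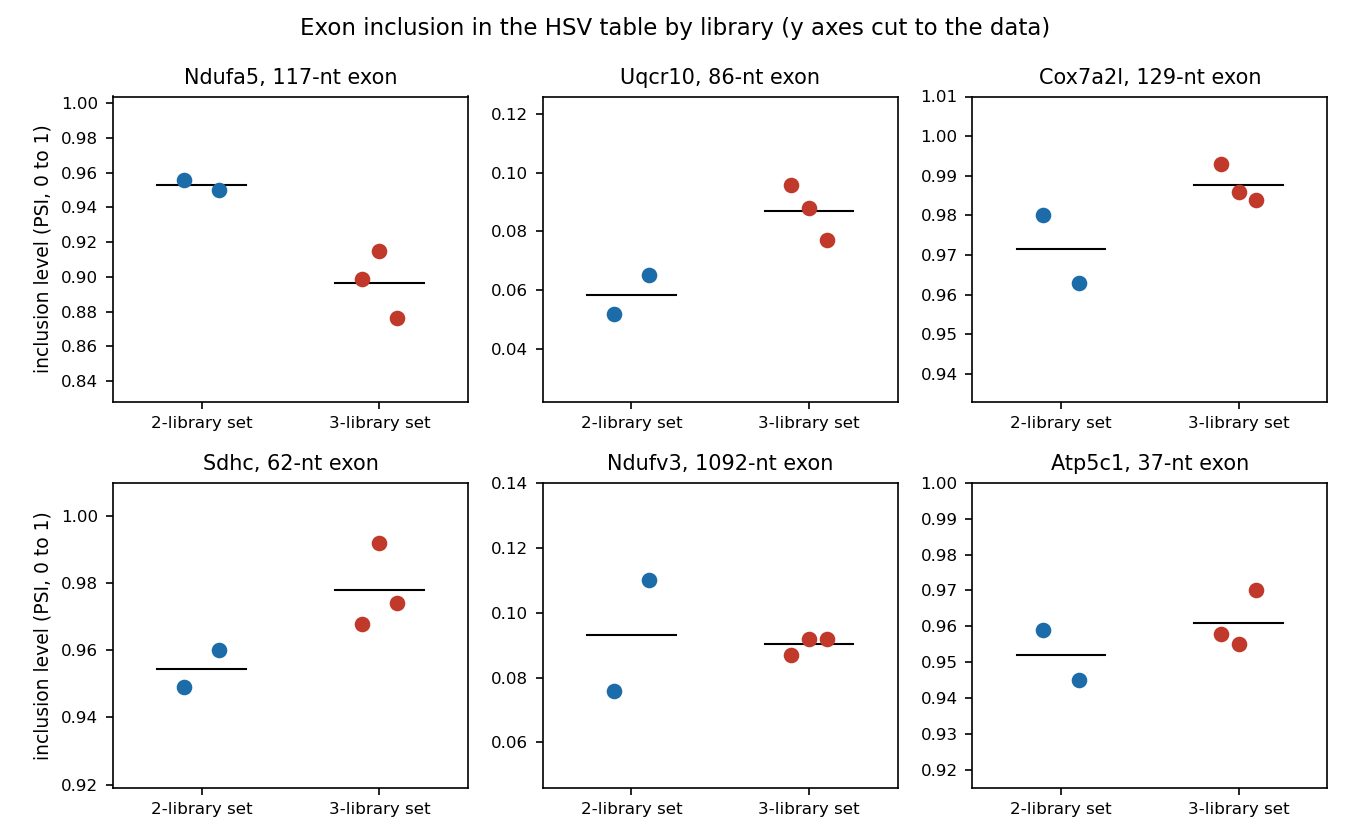
PSI of 6 exons in each HSV library, the 2-library set in blue and the 3-library set in red, with lines at the means; each y axis is cut to its data. Ndufa5 is lower and Uqcr10 higher in the 3-library set without overlap, as are Cox7a2l and Sdhc (higher), while Ndufv3 and Atp5c1 overlap.

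The remaining large differences did not pass either test. The 111-nt exon of Atp5s stood at 0.794 and 0.910 against 0.878, 0.801 and 0.598, with 2 to 12 skipping reads per library, and overlapped (limma adjusted p = 0.747). A second 57-nt exon of Ndufaf6, ending at 10993854, ran from 0.282 to 0.627 within the 3-library set alone, around 0.397 and 0.584 in the other. A 144-nt exon of Ndufaf7, a complex I methyltransferase, was at 0.854 and 0.884 against 0.921, 0.887 and 0.920, higher without overlap (limma adjusted p = 0.592). It had 333 reads per library, while the other 2 exons had few.

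Known isoforms of the chain were seen in both sets. Ndufv3, a flavoprotein-module subunit of complex I, occurs in a short form and in a long form that carries a long alternative exon. Its 1092-nt exon had a PSI of 0.076 and 0.110 against 0.087, 0.092 and 0.092, so the 3-library set lay inside the range of the other (adjusted p = 0.959, limma). Atp5c1 encodes the gamma subunit that turns inside ATP synthase, and muscle is known to skip a short exon of its transcript. The 37-nt exon listed here was at 0.959 and 0.945 against 0.958, 0.955 and 0.970 (adjusted p = 0.681).

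In the dCas9-SET2 table the members had 25 exon events in 20 genes: 9 genes of complex I, 1 of complex III, 1 of complex IV, 6 of complex V and 3 assembly factors. The median event had 29.7 reads per run, against 4.8 over all 5608 events. Runs are not independent samples here, so PSI was pooled over the 15 distinct runs of a set and described without a test. The median difference, second set minus first, was 0.0007, against 0.0016 for all events (-0.0011 for the members with both copies of the repeated run), and the median absolute difference 0.007 against 0.05. Members took 1.45% to 1.80% of the reads of a first-set run and 1.51% to 2.18% of a second-set run.

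The authors' deposited table calls 2 of the 24 member events with an adjusted p, at padj below 0.05, beside 4.96% of all 5287 events. Both were lower in the second set, as were 2.72% of all. One is the 1092-nt exon of Ndufv3, with padj 0.0429 and a dPSI of -0.032. Over 1904 and 1607 reads its pooled PSI was 0.170 in the first set and 0.140 in the second. Single runs of the first set ran from 0.127 to 0.210 with a median of 0.177. Those of the second ran from 0.085 to 0.221 with a median of 0.136, so the runs overlap widely. The other is the 111-nt exon of Atp5s, with padj 0.0245 and a dPSI of -0.593. It had 21 reads in the first set and 16 in the second over all distinct runs, 0 to 4 per run, and a pooled PSI of 0.667 and 0.377. The sources used here do not say whether the deposited test counted the repeated run once.

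The most deeply read exons of each complex did not pass the deposited test. Atp5d was included at 0.996 and 0.992 over 3799 and 3292 reads (padj 0.121), and a 69-nt exon of Cox7a2l was included at 0.002 and 0.001 (padj 0.518). The 116-nt exon of Ndufa6, a peripheral subunit of complex I, stood at 0.974 and 0.949 (padj 0.159), with runs from 0.927 to 1.0 and from 0.817 to 1.0. The exon of Uqcr10 was at 0.058 and 0.077 (padj 0.754), that of Ndufaf3 at 0.986 and 0.982 (padj 0.574) and that of Ndufa5 at 0.953 and 0.946 (padj 0.574).

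Inclusion levels were also set side by side between the experiments. Events were matched by gene, exon length and the lengths of both neighbouring introns, since the coordinates of the tables differ. Of the 25 events 21, in 19 genes, had a partner in the HSV table, and in 16 of these the mean levels of the tables lay within 0.05 of each other. This held for mostly skipped exons, such as Ndufa3 238 nt (0.004 in the HSV table, 0.002 and 0.003 in the dCas9-SET2 sets), Ndufa12 61 nt (0.005, 0.004 and 0.003), Ndufv2 69 nt (0.009, 0.004 and 0.006) and those of Atp5j2 with 66 nt (0.014, 0.017 and 0.016) and 130 nt (0.016, 0.014 and 0.022). It held as well for mostly included exons, such as Ndufa7 50 nt (0.956, 0.960 and 0.970), Ndufs4 79 nt (0.942, 0.968 and 0.971), Atp5l 161 nt (0.993, 0.980 and 0.977) and Atp5c1 37 nt (0.957, 0.934 and 0.944). Most of the matched exons lie near 0 or near 1, where levels have little room to differ. The share over all matched events was not counted, so it is not known whether the closeness is particular to these genes.

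The tables differed most for Atp5s (0.796 against 0.667 and 0.377) and for the Ndufaf6 exon of intermediate inclusion (0.473 against 0.665 and 0.670), with 1.23 and 1.8 reads per run. Ndufaf2 41 nt differed too (0.954 against 0.886 in both sets), with 5.6 reads per run. Ndufv3 (0.091 against 0.170 and 0.140) and Atp5j 55 nt, in the coupling factor of ATP synthase (0.050 against 0.152 and 0.103), were included more in both dCas9-SET2 sets than in any HSV library. The tables were made separately and with different form lengths, 150 nt against 99 nt for the skipping form, so these differences were not tested. The differences between sets of Ndufa5, -0.056 in the HSV table and -0.007 in the other, and of Uqcr10, 0.028 and 0.019, stand side by side only, as the sets of the tables are of unknown identity.

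**Figure D5:**
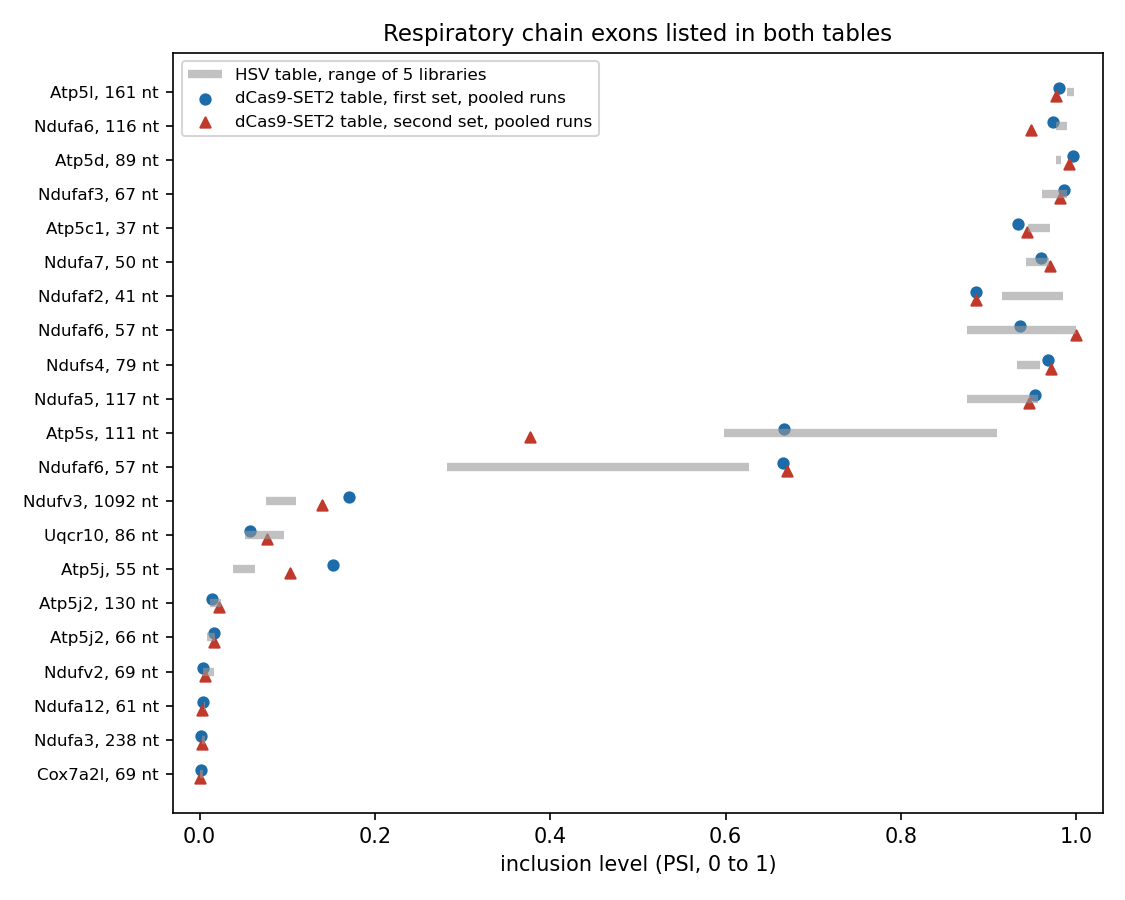
PSI of the 21 exons found in both tables, ordered by level. Grey bars give the range of the 5 HSV libraries, blue points and red triangles the pooled distinct runs of the first and second dCas9-SET2 sets. Most exons lie near 0 or near 1 in all, and Atp5s and an exon of Ndufaf6 lie between.

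Genes that serve the chain were counted from lists by function, to be read against the 22.7% of all genes that passed the coverage test (13.2% higher, 9.49% lower). Of 21 measured assembly factors and electron carriers outside the naming rule, 1 passed (4.76%): Lyrm7, a chaperone of the complex III iron-sulfur protein, fell from 27.3 and 23.9 to 14.1, 9.42 and 11 CPM (log2 difference -1.16, limma adjusted p = 0.00938). Of 44 measured genes of the mitochondrial ribosome 1 passed (2.27%), Mrps22, which rose (0.49, adjusted p = 0.0331). The median of that list was -0.04.

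In the list of the tricarboxylic acid cycle and pyruvate dehydrogenase, 1 of 14 tested exon events passed the inclusion test, beside 3.69% of all events. This 45-nt exon of Ogdh, a subunit of the oxoglutarate dehydrogenase complex, had a PSI of 0.102 and 0.109 against 0.197, 0.155 and 0.206 and rose (limma adjusted p = 0.00465). Of the other functional lists only that of carriers and membrane held a called event. Without weights 0 of all 7754 events were called, so neither call remained. Of 15 glycolysis genes 2 rose and 2 fell (26.7%), a share near that of all genes. Slc2a1, the glucose transporter of glia and endothelium (1.02), and Hk1, the brain hexokinase (0.39), rose, while Pfkp, a phosphofructokinase (-0.41), and Eno2, the neuronal enolase (-0.28), fell.

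Of 15 carrier and membrane genes 2 passed (13.3%), with 8 of the 15 above 0. Slc25a5, an ADP/ATP carrier, had 1036.9 and 992.7 against 813.6, 775.8 and 794.9 CPM (-0.35, limma adjusted p = 0.0039), and Vdac1, the outer membrane channel, fell as well (-0.32, adjusted p = 0.013). In this list 1 of 24 tested exon events passed the inclusion test. This 33-nt exon of Dnm1l, the fission GTPase, had a PSI of 0.881 and 0.897 against 0.789, 0.838 and 0.773 and fell (limma adjusted p = 0.0257). Of 15 import genes 4 fell (26.7%), where 9.49% of all genes were called lower. In this list 0 genes were called higher, and 7 lay above 0. The largest decreases were in Tomm70a, a receptor of the outer membrane, at 556.9 and 473.9 against 294.6, 255.2 and 311.8 (-0.84, adjusted p = 9.13e-05), and Timm44, part of the import motor (-0.63, adjusted p = 0.00363). Of 10 regulators of mitochondrial biogenesis 1 fell (10%), Tfb2m, a mitochondrial transcription factor (-0.72, adjusted p = 0.0207). In the same samples the markers of medium spiny neurons fell and the interferon genes rose, as given above, and their part in these lists was not tested.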

How the data were processed

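RNA of mouse nucleus accumbens was measured in 2 tables of exon skipping events, one from the HSV and one from the dCas9-SET2 experiment. The read counts, as deposited by the authors, are whole numbers joined by commas, with no library names, so 5 libraries and 32 runs carry no sample. They were compared in the sets in which the tables list them, and of 16 listed runs in each dCas9-SET2 set 1 repeats another exactly and was counted once. PSI is deposited too and was recomputed from counts and form lengths (100% of values within 0.001). The p-values (FDR, padj) and the difference scores are the authors' own. Their caller and test are not given in the sources used here. Per the submitters' processing notes, STAR 2.4.1d and Bowtie2 were used in the series. Coordinates are 1-based, as each table gives them. In the HSV table the inclusion form is 150 nt longer than the exon, so reads within the exon count as inclusion.

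Gene IDs of the HSV table were matched to symbols (9430 of 9542). Events were kept at an average of at least 20 reads a library with at least 10 reads, in total, of the less frequent form, and fitted with limma 3.58.1 (R 4.3.3) on the logit of PSI (0.5 added to each count), weighted by reads, two-sided, with Benjamini-Hochberg adjustment over all 7754 events. Coverage was the inclusion plus skipping reads of a gene's deepest event, scaled by TMM and fitted with limma on log2 values (0.5 added, spread trended on coverage) over all 8201 genes, which understates the fold change of thinly covered genes. Both fits were tested on simulated data and recovered the changes put in. Those changes were larger than the ones called here and lay in well-read features. For inclusion they lay only in events where both forms were common. The simulations therefore do not show how the fits treat changes as small as those called. Where the simulation added a spread between libraries that does not shrink with depth, the inclusion fit made more false calls than its threshold allows, and a between-library term in its weights was therefore added as an alternative. The added spread was smaller than the one estimated from the data (SD 0.408 on the logit scale). Depth differed little between libraries of the HSV table, and a run of the other table holds far fewer reads, so its PSI values are coarse.

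The text names every member event called by limma or by the deposited FDR or padj, the deepest event and gene of each complex, the 3 largest inclusion differences in each direction among tested events, up to 5 called genes each way for coverage, measured members of duplicated subunit pairs, members in both tables, and up to 2 called genes each way of each functional list (coverage of the tricarboxylic acid cycle list is not reported here). Ndufb5, Atp5d, Atp5h, Atp5o, Atp5c1, the coverage of Atp5s and Atp5j2, and the densities of other genes were added after their values were seen. Members and lists were chosen with earlier results of these data known. Promoter windows came from RefSeq (GRCm38.p6), whose positions differ from those of the HSV table, so no event was placed relative to a window.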

Additional observations from a re-analysis of the deposited data

How the results depend on the processing

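The 5 libraries limit precision: the median standard error of a member's log2 coverage difference was 0.089, against 0.185 for all genes. Of the 2 inclusion calls, 0 remained in limma without weights (5 members at unadjusted p below 0.05) and 0 with a between-library term (4), while 5 were made by the deposited FDR. The shares of all events called were 0%, 0.0645% and 12.6%, in that order. Leaving out each library in turn gave 1 to 2 inclusion calls (with library 1 of the 2-library set left out, Cox7a2l in place of Uqcr10). Of all events 1.93% to 3.04% were called in these fits. Of the 3 coverage calls, 0 remained in limma with 1 prior spread for all genes in place of the trend (1 at unadjusted p below 0.05), where voom weights gave 3. Of all genes 14.4% and 23% were called, in that order. Leaving out each library gave 0 to 5 coverage calls (0 without the third of the 3-library set, 1 without its second, 5 without the second of the 2-library set). The matching shares of all genes called were 16.3%, 17.6% and 25.5%. Coverage from skipping reads alone called 2 of 18 members, Ndufa5 higher and Atp5h lower, beside 20.3% of all genes in that fit. The 3 called genes had too few skipping reads to enter it, so it could not test them. The median coverage difference of members lay between -0.066 and 0 without each library and was 0.001 with scaling by total reads, where the median of all genes was 0.032. In the dCas9-SET2 table the 2 calls became 0 at padj below 0.01, 1 at an absolute dPSI of at least 0.1 and 1 among events with 5 reads per run. The median inclusion difference there was 0.0007 and turned to between -0.0011 and -0.0009 under the alternatives run, the count of the repeated run included (added after seeing the data). The 5 events called by limma or the deposited FDR and the 3 called genes kept their direction under each alternative run for them, while Ndufa5 coverage, lower from all reads, was higher from skipping reads alone. Those are the skipping reads of its 117-nt exon (50 and 53 against 100, 71 and 119), which its inclusion call already uses. The causes of changes between settings were not tested. No paired analysis was possible because the columns carry no replicate numbers.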
